A study of Rattus norvegicus with 6 samples.

Results

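Solute carrier genes gave 118 exonic circular RNAs (circRNAs) with at least 1 read, from 56 host genes, of 7461 such circRNAs from 3160 host genes in white matter of 6 rats. The members are every exonic circRNA whose host symbol in the authors' table begins with Slc and a family number, apart from the sodium-calcium exchanger gene Slc8a1, which was left out by the rule. They held 518 of the back-splice reads, 1.54% of all exonic reads, 253 in model rats and 265 in control rats. A further 33 exonic circRNAs of such hosts are listed in the table with 0 reads.

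The tissue came from 3 rats of a cerebral palsy model and from 3 normal rats, which served as controls, and each rat gave 1 library. Total RNA of both groups was digested with RNase R, an exonuclease that removes linear RNA, before random-primed libraries were made. No source used here says how the model was induced or gives the strain, age or sex of the animals. The comparison the design implies is of circRNA levels in model against normal tissue.

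Solute carriers are membrane proteins that move amino acids, ions, metals, sugars, lipids and vitamins across the plasma membrane and the membranes of organelles. In white matter they clear glutamate from around axons, buffer ions and pH, and supply myelinating cells with substrates for lipid synthesis. A circRNA forms when a downstream splice donor of a transcript joins an upstream acceptor, and the read across that back-splice junction identifies it. The count of such reads measures the circular products of a gene, not its mRNA and not the transporter protein.

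Exonic junction reads numbered 5585, 4472 and 5404 in model rats 1 to 3 and 6540, 5995 and 5655 in control rats 1 to 3. Levels are given as reads per 1000 exonic junction reads of the library. Where a library had 0 reads, as many as 3 remain possible, which is 0.459 to 0.671 per 1000, and such limits and intervals cover counting error only, since the libraries were amplified by PCR and no molecule counts are given. Back-splice reads on chromosome Y were 0 in each model library and 2, 9 and 2 in the control libraries, and a part of sex in the results below was not tested. Because whole tissue was sequenced, fewer cells of a type and less circular RNA per cell cannot be told apart.

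Solute carrier circRNAs took a similar share of exonic reads in both groups, with a difference in means about as large as the SD between rats. The share was 1.41% (95% exact binomial interval 1.12 to 1.76), 1.77% (1.40 to 2.20) and 1.76% (1.42 to 2.14) in model rats. It was 1.31% (1.05 to 1.62), 1.67% (1.36 to 2.03) and 1.40% (1.11 to 1.74) in control rats. The means were 1.65% ± 0.201 in model rats and 1.46% ± 0.185 in control rats (SD, n = 3 each), with overlapping groups. Adding the excluded Slc8a1, which alone held 113 reads, changed the difference in means from 0.186 to -0.0123 percentage points.

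Circle-forming members made up about the same share of the family as of genes at large. Of 381 protein-coding rat genes with such a symbol, 56 (14.7%) gave an exonic circRNA with a read, against 3032 of 23148 protein-coding genes (13.1%). Most of the circRNAs were rare: 61 of the 118 (51.7%) rested on a single read, against 49.0% of all exonic circRNAs. Reads were concentrated in a few hosts. The leading host held 23.4% of them, the first 3 held 49.2% and the first 10 held 73.4%. At the other end, 38 hosts had fewer than 6 reads each and 81 reads together, and 17 of these had 1 read. Only 6 hosts were seen in all 6 libraries, and 28 were seen in a single library. Reads were confined to model rats in 16 hosts and to control rats in 19. The 28 hosts seen in a single library fall among these by necessity, and the share over all hosts of the series was not counted.

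**Figure D1:**
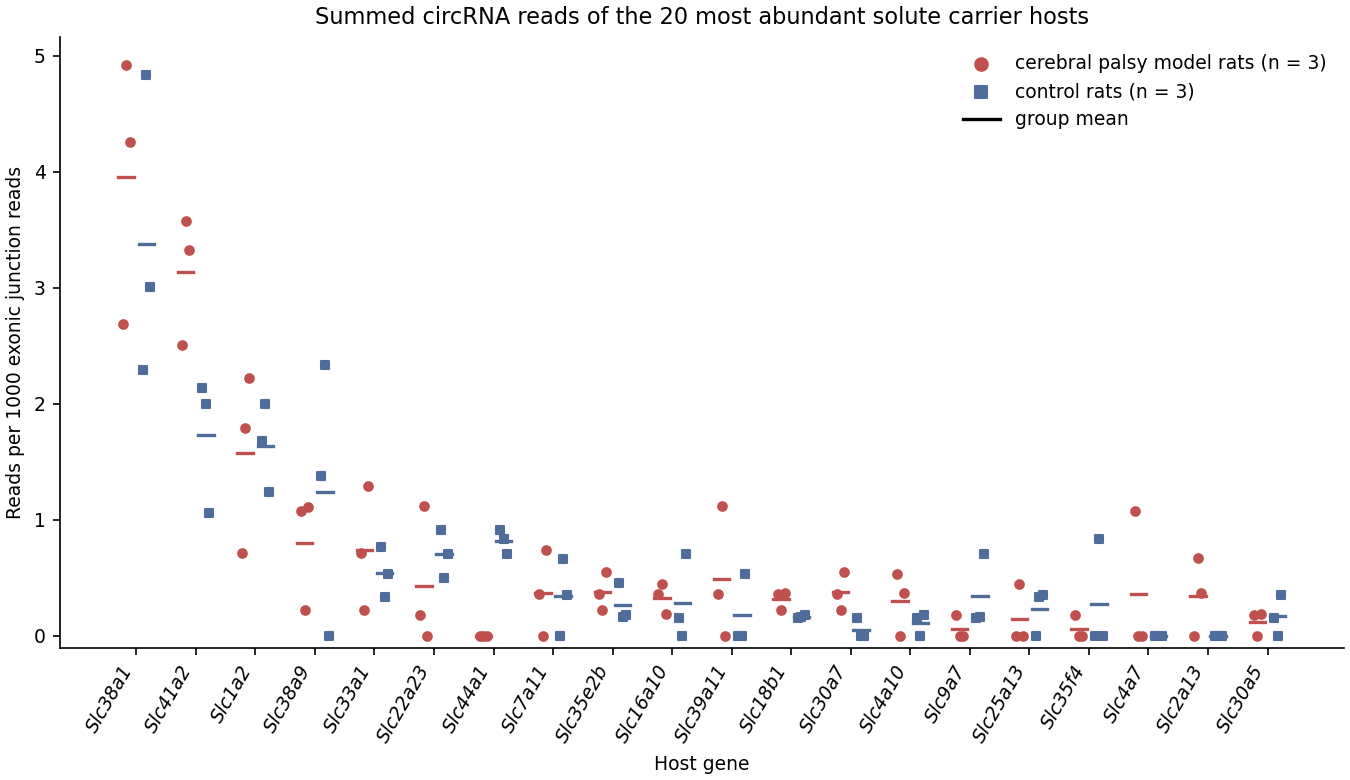
Summed exonic circRNA reads of the 20 solute carrier hosts with most reads, on the vertical axis as reads per 1000 exonic junction reads, with hosts along the horizontal axis. Each circle is a model rat, each square a control rat and each bar a group mean (n = 3 each). Slc38a1, Slc41a2 and Slc1a2 stand above the others, model rats lie above control rats for Slc41a2, and all 3 model rats are at 0 for Slc44a1.

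Amino acid and neurotransmitter carriers formed the largest group by reads. Their 10 hosts held 31 circRNAs and 245 reads, 47.3% of all solute carrier reads. The summed level was 7.34 ± 2.12 per 1000 in model rats and 7.29 ± 2.52 in control rats (SD, n = 3 each), and the groups overlapped. Of 5 hosts of this group with enough reads to test, 0 passed edgeR's quasi-likelihood test after Benjamini-Hochberg adjustment.

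Slc38a1 was the most abundant host of the family. It encodes SNAT1, a sodium-coupled transporter of glutamine and other neutral amino acids. Its circRNAs had 15, 22 and 23 reads in model rats and 15, 29 and 17 in control rats, or 3.95 ± 1.15 and 3.38 ± 1.31 per 1000 (SD, n = 3 each). The groups overlapped, and the log2 fold of model over control was 0.16 ± 0.44 (SE, edgeR adjusted p = 0.979). The fold was -0.05 without control rat 1 and -0.03 without model rat 2. Scaling by DESeq2 size factors or by the authors' divisors brought it to -0.01, along with a shift of the median of all hosts from 0.02 to -0.14. Nearly all of these reads came from circRNA1116, which spans chr7:127765183-127783757 on the minus strand and holds 3 exons. It had 14, 22 and 23 reads in model rats and 15, 29 and 17 in control rats, 99.2% of the reads of its host. The host's other circRNA had a single read. With 59 reads in model rats and 61 in control rats, circRNA1116 was the only member kept by edgeR's default filter on low counts.

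Slc1a2 encodes GLT-1, the glutamate transporter that astrocytes use to clear glutamate from the extracellular space. Its 10 circRNAs had 4, 8 and 12 reads in model rats and 11, 12 and 7 in control rats. This gives 1.58 ± 0.775 and 1.64 ± 0.384 per 1000 (SD, n = 3 each), with overlapping groups. The log2 fold was -0.13 ± 0.61 (SE, edgeR adjusted p = 0.980), and it turned to 0.16 without model rat 1 and to 0.06 without control rat 2. None of 10 astrocyte marker genes, among them Gfap, Aqp4, Aldh1l1 and Gja1, had an exonic circRNA read in any library.

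The Slc1a2 circRNAs lie on chromosome 3, plus strand, and meet at a common splice donor. Of the 10, 5 end at position 89112613, and these held 46 of the 54 reads (85.2%). The leading circRNA, circRNA1658, spans chr3:89101532-89112613 with 3 exons and had 1, 5 and 6 reads in model rats and 7, 6 and 3 in control rats. Its level was 0.803 ± 0.540 per 1000 in model rats and 0.867 ± 0.294 in control rats (SD, n = 3 each), with overlapping groups and a log2 fold of -0.25 ± 0.91 (SE, edgeR adjusted p = 0.981). The same donor closes a circle of 5 exons, circRNA1657, which starts at 89089243 and had 0, 1 and 2 reads in model rats and 1, 4 and 1 in control rats. It also closes a circle of 2 exons, circRNA1659, which starts at 89106617 and had 0, 0 and 1 reads in model rats and 1, 1 and 3 in control rats. These 2 nested circles overlapped between groups, with 3 and 1 reads in model rats against 6 and 5 in control rats.

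The remaining Slc1a2 circles were rarer still. The 8-exon circRNA3394, from 89081498 to the common donor, had 1 read in each group, and the 4-exon circRNA7187 had 1 read in model rats and 0 in control rats. Outside the common donor, circRNA1656 (89081498 to 89093978, 5 exons) had 1 read in model rats and 2 in control rats, and circRNA5635 (89101532 to 89106811, 2 exons) had 2 in model rats and 0 in control rats. The other 3, circRNA6446, circRNA7188 and circRNA7189, had 1 read each in model rats and 0 in control rats. Among them circRNA7188 is the shortest circle of the whole family, 1 exon of 195 bp. Over all 10 circles, circRNA1658 gave 12 of 24 reads in model rats and 16 of 30 in control rats. An intron-derived circle of Slc1a2, which the table classes as a ciRNA and which is not counted above, had 0 reads in model rats and 0, 2 and 0 in control rats.

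**Figure D2:**
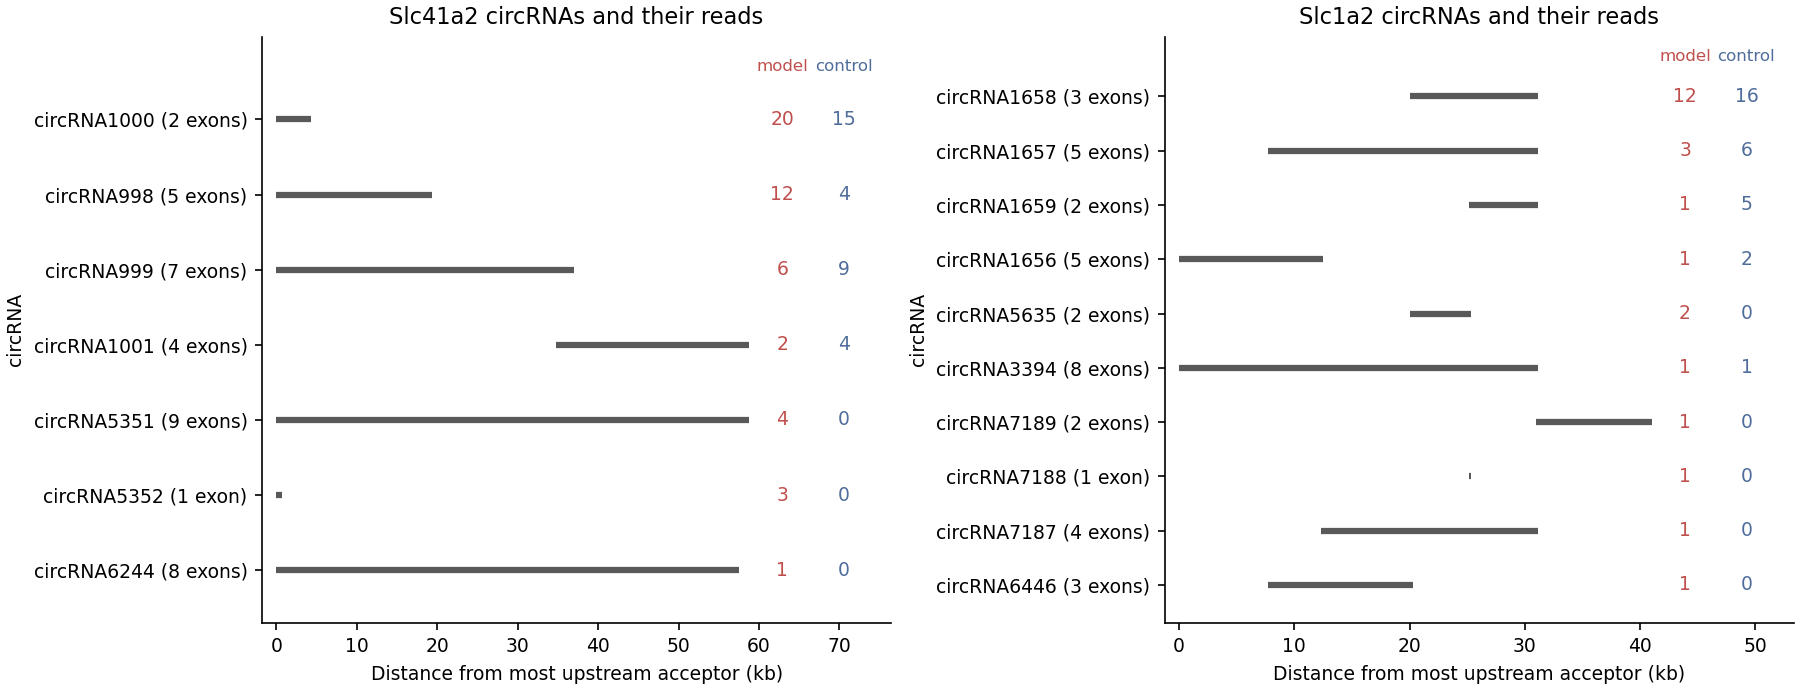
Circular RNAs of Slc41a2 (left) and Slc1a2 (right), each drawn as a bar from its back-splice acceptor to its donor, on a horizontal axis of distance in kb from the most upstream acceptor of the host. The numbers beside each bar are its reads summed over 3 model rats and over 3 control rats. In Slc41a2, 6 of 7 circles start at the same acceptor, and in Slc1a2, 5 of 10 end at the same donor.

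Slc38a9 encodes the lysosomal transporter that senses arginine for the growth-control kinase complex mTORC1. Its 4 circRNAs had 6, 1 and 6 reads in model rats and 9, 14 and 0 in control rats, or 0.803 ± 0.502 and 1.24 ± 1.17 per 1000 (SD, n = 3 each). The control rats thus held both the highest and the lowest value, and the log2 fold was -0.67 ± 0.74 (SE, edgeR adjusted p = 0.979), turning to 0.16 without control rat 2 and to 0.21 in limma voom. A pair of circRNAs on the plus strand of chromosome 2 divided these reads between rats. The 4-exon circRNA1779 (chr2:44333551-44342922) had 6, 0 and 0 reads in model rats and 7, 13 and 0 in control rats, with a log2 fold of -1.61 ± 0.99 (SE, edgeR adjusted p = 0.926). Its fold was -0.54 without control rat 2, while without model rat 1 the model rats had 0 reads and the fitted fold of -5.65 depends on the prior count. The upstream circRNA1777 (chr2:44323374-44327939), also of 4 exons, had 0, 0 and 6 reads in model rats and 1, 1 and 0 in control rats. Each group therefore had at least 1 rat without circRNA1779 reads, and in model rat 3 the reads of this host came from circRNA1777 alone.

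The other amino acid carriers had 1 to 12 reads. Slc7a11, which encodes the cystine-glutamate exchanger xCT, had 2, 0 and 4 reads in model rats and 0, 4 and 2 in control rats, with a log2 fold of 0.11 ± 1.23 (SE, edgeR adjusted p = 0.980). It turned to -0.80 without model rat 3 and to -0.48 without control rat 1, and was 1.01 without control rat 2. Slc18b1, a vesicular polyamine transporter gene, had 2, 1 and 2 reads in model rats against 1, 1 and 1 in control rats. Its model libraries lay above its control libraries only once reads were scaled by depth, and the ratio of 1.96 has a 95% exact interval of 0.382 to 12.6. Slc6a6, the taurine transporter gene, had 0 reads in model rats and 0, 1 and 4 in control rats, while Slc6a15, a neutral amino acid transporter gene, had 0, 1 and 3 in model rats and 0 in control rats. These last counts are near the 3 reads that a count of 0 allows. The vesicular monoamine transporter gene Slc18a1 and Slc7a7 had 2 reads each, all in control rat 3, and Slc7a6 had 1 in model rat 3.

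The summed level of the metal ion carriers was higher in model rats, and Slc41a2 gave most of that sum. The 5 hosts of this group, for magnesium and zinc, held 17 circRNAs and 103 reads, 63 in model rats and 40 in control rats. The summed level was 3.40, 4.92 and 4.07 per 1000 in model rats and 2.45, 2.00 and 2.12 in control rats, or 4.13 ± 0.761 and 2.19 ± 0.230 (SD, n = 3 each), so the groups did not overlap. Slc41a2 gave 77.7% of these reads. Without it the levels were 0.992 ± 0.312 in model rats and 0.456 ± 0.546 in control rats, and the groups overlapped. All 3 tested hosts of the group had a positive log2 fold and 0 of them passed the edgeR test.

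Slc41a2 encodes a magnesium transporter. Its 7 circRNAs had 14, 16 and 18 reads in model rats against 14, 12 and 6 in control rats. Per 1000 exonic reads these are 2.51, 3.58 and 3.33 in model rats and 2.14, 2.00 and 1.06 in control rats, with means of 3.14 ± 0.561 and 1.73 ± 0.587 (SD, n = 3 each). Every model rat lay above every control rat after scaling by depth, although model rat 1 and control rat 1 had the same raw count. The log2 fold was 0.77 ± 0.52 (SE) and did not pass the test (edgeR adjusted p = 0.979, range 0.638 to 0.998 over the alternatives). It stayed positive with each library left out in turn, between 0.52 and 0.96.

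The Slc41a2 circles share a start, where those of Slc1a2 share an end. They lie on the plus strand of chromosome 7 within transcript ENSRNOT00000011572, and 6 of the 7 begin at the acceptor at position 20406443, with 74 of the 80 reads (92.5%). The leading circRNA1000 (chr7:20406443-20410731) holds 2 exons and had 5, 5 and 10 reads in model rats and 9, 3 and 3 in control rats. That is 1.29 ± 0.500 per 1000 in model rats and 0.802 ± 0.497 in control rats (SD, n = 3 each), with overlapping groups and a log2 fold of 0.56 ± 0.82 (SE, edgeR adjusted p = 0.981), which was 0.11 without model rat 3 and 1.27 without control rat 1. From the same acceptor, circRNA998 runs over 5 exons to 20425767 and had 4, 6 and 2 reads in model rats and 2, 2 and 0 in control rats. Its model rats lay above its control rats per 1000 reads, at 0.809 ± 0.492 against 0.213 ± 0.185 (SD, n = 3 each), with a log2 fold of 1.65 ± 1.20 (SE, edgeR adjusted p = 0.981). The closest libraries, model rat 3 and control rat 2, had 2 reads each, at 0.370 and 0.334 per 1000. Scaled further by edgeR's factors of 1.014 and 0.909 for these libraries, their order turns and the groups overlap.

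Of the circles from this acceptor, circRNA999 had a fold of the other sign. It covers 7 exons to 20443465 and had 1, 4 and 1 reads in model rats and 2, 5 and 2 in control rats, with overlapping groups. Its log2 fold was -0.41 ± 1.22 (SE, edgeR adjusted p = 0.981) and turned to 0.23 without control rat 2 and was -1.33 without model rat 2. The remaining 3 circles of the shared acceptor were read in model rats alone: circRNA5351 (9 exons, to 20465226) had 2, 0 and 2 reads, circRNA5352 (1 exon of 714 bp) had 1, 0 and 2, and circRNA6244 (8 exons, to 20463938) had 0, 1 and 0. These 3 are set together by their 0 reads in control rats, so a sum of them compares nothing between the groups. The circle with another start, circRNA1001 (20441236 to 20465226, 4 exons), had 1, 0 and 1 reads in model rats and 1, 2 and 1 in control rats. As shares of the host, circRNA1000 held 20 of 48 reads in model rats and 15 of 32 in control rats, circRNA998 held 12 of 48 in model rats and 4 of 32 in control rats, and circRNA999 held 6 of 48 in model rats and 9 of 32 in control rats.

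The zinc carriers of this group were few in reads. Slc39a11, the gene of the zinc importer ZIP11, had 2, 5 and 0 reads in model rats and 0, 0 and 3 in control rats, with a log2 fold of 1.34 ± 1.39 (SE, edgeR adjusted p = 0.979). The fold was 0.79 without control rat 1 and 0.83 without control rat 2, and without control rat 3 the control rats had 0 reads and the fitted 4.44 depends on the prior count. The ratio of its reads was 2.75, with a 95% exact interval of 0.627 to 16.5. Slc30a7, the gene of the Golgi zinc transporter ZnT7, had 2, 1 and 3 reads in model rats and 1, 0 and 0 in control rats, which do not overlap after scaling, with a ratio of 7.06 and an interval of 0.856 to 325. Slc30a5, which encodes the related ZnT5, had 1, 0 and 1 reads in model rats and 1, 0 and 2 in control rats, and Slc39a12 had 1 read in control rat 3. The intervals of Slc39a11 and Slc30a7 both include a ratio of 1.

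**Figure D3:**
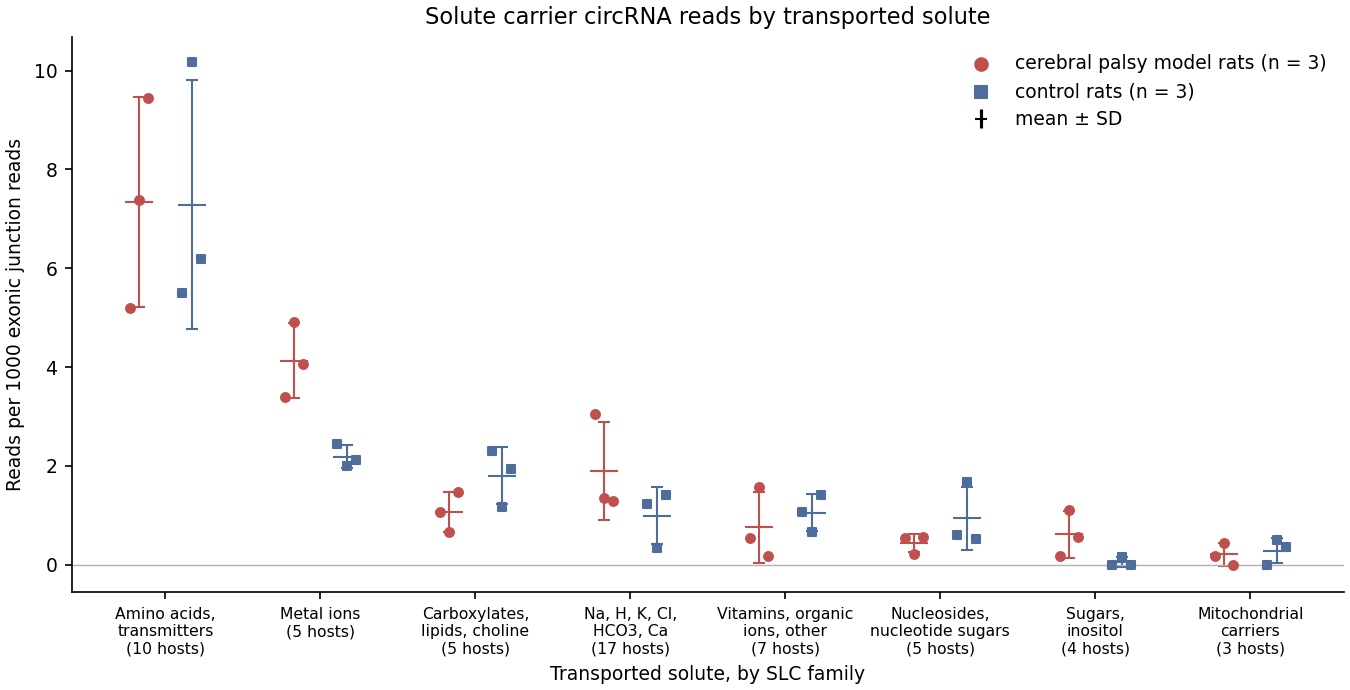
Summed circRNA level of the solute carrier hosts by the kind of solute they move, as reads per 1000 exonic junction reads, with the 8 groups along the horizontal axis. Each circle is a model rat, each square a control rat, and the bars give the mean and SD (n = 3 each). The model and control rats of the metal ion group do not overlap, at 3.40 to 4.92 against 2.00 to 2.45, but they do once Slc41a2 is left out. Those of the sugar and inositol group do not overlap either, at 0.179 to 1.12 against 0 to 0.167, on 10 reads in all, but they do once scaled further by edgeR's factors. How often like sums of other genes separate was not counted.

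Carriers of monocarboxylates, choline and acetyl-CoA stood at 1.08 ± 0.405 per 1000 in model rats and 1.80 ± 0.576 in control rats (SD, n = 3 each), with overlapping groups. The 5 hosts held 13 circRNAs, with 17 reads in model rats and 33 in control rats. The gap lay in Slc44a1, without which the group had 17 reads in model rats and 18 in control rats, and 1.08 ± 0.405 against 0.982 ± 0.566 per 1000.

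Slc44a1 encodes the choline transporter CTL1, and choline is a precursor of the phospholipids of myelin. Its 6 circRNAs had 0, 0 and 0 reads in model rats against 6, 5 and 4 in control rats, a control level of 0.820 ± 0.106 per 1000 (SD, n = 3). With 3 reads over the group set in place of 0, its level was 4.25-fold lower in model rats. This takes the control count as exact, so it is not a lower limit of the fold. The unadjusted p in edgeR was 0.0021, the smallest of the 18 solute carrier hosts tested, but the adjusted p was 0.362 and ranged from 0.230 to 0.996 over the alternatives. Slc44a1 therefore did not pass the test. The 6 reads needed for a test came from control rats alone, here and for its leading circle below, so neither unadjusted p is taken as support. Its leading circle, circRNA1319 (chr5:68110069-68144038, plus strand, 3 exons), had 0 reads in model rats and 3, 4 and 1 in control rats (edgeR unadjusted p = 0.0444, adjusted p = 0.710). The 11-exon circRNA4428 had 3 reads in control rat 3, and the other 4 circles had 1 read each, in control rat 1 or 2.

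Oligodendrocyte markers had few reads in the same rats. Of 14 marker genes, 4 had exonic circRNA reads, namely Ugt8, Enpp2, Bcas1 and Opalin, with 1 read in model rats and 16 in control rats. Their summed level was 0 to 0.185 per 1000 in model rats and 0.531 to 1.50 in control rats. Only 2 of them, Ugt8 and Enpp2, had enough reads to test, and 0 passed (edgeR adjusted p = 0.826 for each). Ugt8 had 2, 5 and 0 reads in control rats and Enpp2 had 2, 4 and 0, with 0 in model rats for both. The defining myelin genes Mbp, Mog, Mag, Mobp, Cnp, Cldn11, Ermn, Myrf and Aspa had 0 exonic circRNA reads in all libraries. A part of oligodendrocyte number in the Slc44a1 result was not tested.

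The rest of this group differed less. Slc33a1 encodes the acetyl-CoA transporter of the endoplasmic reticulum, and its 3 circRNAs had 4, 1 and 7 reads in model rats and 5, 2 and 3 in control rats. The levels were 0.745 ± 0.536 and 0.543 ± 0.216 per 1000 (SD, n = 3 each), and the log2 fold of 0.42 ± 0.90 (SE, edgeR adjusted p = 0.979) turned to -0.22 without model rat 3. Slc16a10, placed here by its family though it carries aromatic amino acids and thyroid hormone, gave a single circRNA, circRNA914 (chr20:43500832-43505021, minus strand, 2 exons). It had 2, 2 and 1 reads in model rats and 1, 0 and 4 in control rats, and a log2 fold of 0.18 ± 1.37 (SE, edgeR adjusted p = 0.980) that turned to -0.37 without control rat 2 and was 1.74 without control rat 3.

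Carriers of sodium, protons, chloride, bicarbonate and calcium were the most numerous hosts and among the poorest in reads. The 17 hosts gave 29 circRNAs and 48 reads, 30 in model rats and 18 in control rats, and 12 of them gave a single circRNA. The summed level was 3.04, 1.34 and 1.30 per 1000 in model rats and 1.22, 0.334 and 1.41 in control rats, so model rat 1 stood apart and the groups overlapped. Slc4a7, which encodes a sodium-bicarbonate cotransporter, accounted for part of that with 6, 0 and 0 reads in model rats and 0 in control rats. All 6 reads were from 1 circle of 1 rat (circRNA5189, chr15:10612236-10625211, minus strand, 7 exons), and the host had an unadjusted p of 0.0454 and an adjusted p of 0.826 in edgeR. The 6 reads needed for a test thus came from model rat 1 alone, and the unadjusted p is not taken as support. Without Slc4a7 the group had 24 reads in model rats and 18 in control rats.

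Among the other pH-regulating carriers, Slc4a10, a sodium-coupled chloride-bicarbonate exchanger gene, had 3, 0 and 2 reads in model rats and 1, 0 and 1 in control rats over 6 circles. Slc9a7, which encodes a sodium-proton exchanger of the trans-Golgi, had 1, 0 and 0 reads in model rats and 1, 1 and 4 in control rats. Neither separated the groups. The chloride loader NKCC1, encoded by Slc12a2, had 0, 3 and 0 reads in model rats and 0 in control rats. Slc12a3, the gene of the thiazide-sensitive sodium-chloride cotransporter, had 1 read, in control rat 1.

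The last 4 groups were small. Vitamin, organic ion and other carriers had 7 hosts with 11 reads in model rats and 19 in control rats, and the orphan carrier gene Slc22a23 gave 63.3% of them. Slc22a23 had 1, 5 and 0 reads in model rats and 6, 3 and 4 in control rats, with a log2 fold of -0.84 ± 0.99 (SE, edgeR adjusted p = 0.979). That fold was -0.29 without model rat 3 and -2.76 without model rat 2. Its circRNA439 (chr17:30583926-30590459, plus strand, 2 exons) had 0, 2 and 0 reads in model rats and 5, 1 and 4 in control rats, with a log2 fold of -1.93 ± 1.56 (SE, edgeR adjusted p = 0.981). Without model rat 2 the model rats had 0 reads of it, and the fitted fold of -4.72 then depends on the prior count. The symbol rule also caught Slc4a1ap, which encodes an adaptor protein and no transporter, with 1 read in model rat 3.

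Carriers of nucleosides and nucleotide sugars had 5 hosts with 7 reads in model rats and 17 in control rats, or 0.439 ± 0.186 against 0.937 ± 0.635 per 1000 (SD, n = 3 each), and the groups overlapped. Slc35e2b, an orphan member of the nucleotide sugar transporter family, had 2, 1 and 3 reads in model rats and 3, 1 and 1 in control rats, with a log2 fold of 0.42 ± 1.31 (SE, edgeR adjusted p = 0.979), which was 0.05 without model rat 3 and 1.01 without control rat 1. Slc35f4, another orphan of the family, had 1, 0 and 0 reads in model rats and 0, 5 and 0 in control rats, so its control reads came from 1 rat.

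Sugar and inositol carriers had 4 hosts with 9 reads in model rats and 1 in control rats, or 0.617 ± 0.473 against 0.0556 ± 0.0963 per 1000 (SD, n = 3 each). The values were 0.179, 1.12 and 0.555 in model rats and 0, 0.167 and 0 in control rats. These groups did not overlap, on 10 reads in all, but only once scaled by depth, since model rat 1 and control rat 2 had 1 read each. Scaled further by edgeR's factors of 1.0455 and 0.9241 for these libraries, their order turns and the groups overlap. Slc2a13, the gene of the proton-coupled myo-inositol transporter, had 0, 3 and 2 reads in model rats and 0 in control rats. With 3 reads over the control group set in place of 0, this is 1.96-fold higher in model rats, again with the other count taken as exact. Mitochondrial carriers had 3 hosts with 3 reads in model rats and 5 in control rats. Their leading host Slc25a13, which encodes an aspartate-glutamate carrier, had 0, 2 and 0 reads in model rats and 0, 2 and 2 in control rats.

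Over the whole family, no host passed the test in either direction. Of the 56 hosts, 18 had at least 6 reads over the 6 libraries and were tested. Among these 0 were lower and 0 were higher in model rats at an adjusted p of 0.05 in edgeR, against 3 of 1050 hosts lower (0.286%) and 0 of 1050 higher (0%) in the whole series. DESeq2 and limma voom also called 0 of the 18. At an unadjusted p of 0.05 there were 2 of the 18, Slc44a1 and Slc4a7, against 60 of 1050 hosts (5.71%). Both reached the filter of 6 reads through the only group in which they had reads, so neither is taken as support for a difference. Positive folds numbered 11 and negative folds 7, with a median log2 fold of 0.17, beside 527 positive folds of 1050 (50.2%) and a median of 0.02 over all hosts tested.

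Groups that did not overlap were found for 4 of the 18 tested hosts. Every model rat lay below every control rat for 1 host, Slc44a1, which was tested through its control reads alone, against 53 of 1050 hosts (5.05%). Every model rat lay above every control rat for 3 hosts, Slc41a2, Slc18b1 and Slc30a7, against 61 of 1050 (5.81%). As shares of the 18 these are 5.56% and 16.7%, given without a test. In each of the 3 hosts higher in model rats, the closest model and control libraries had the same raw count, so their order rests on scaling by depth. How often this was so among the 61 was not counted. Of the hosts too rare to test, Slc49a4 had 0 reads in model rats and 1, 1 and 1 in control rats.

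**Figure D4:**
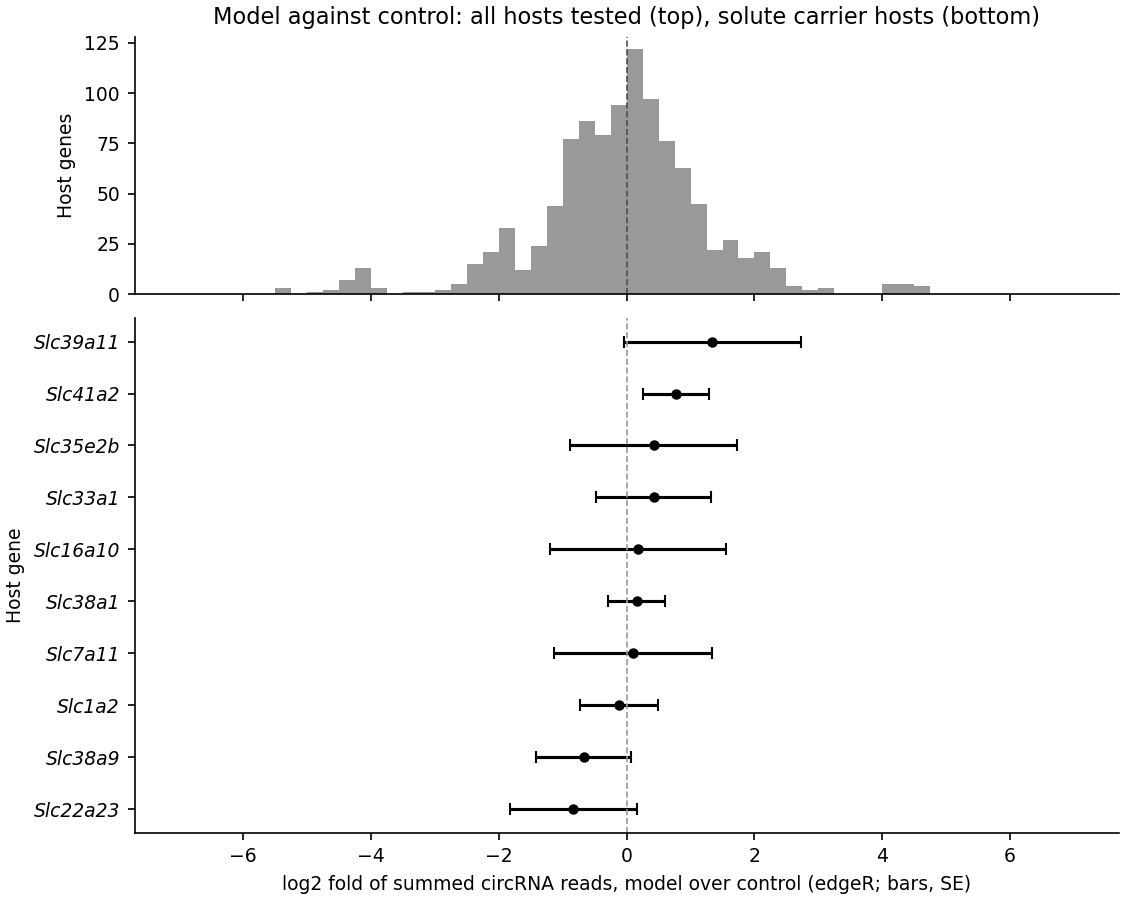
Log2 fold of summed circRNA reads, model over control, on the horizontal axis. The upper panel counts all 1050 tested hosts by fold, and the lower panel shows the 10 solute carrier hosts with at least 10 reads and reads in both groups, with bars of 1 SE from edgeR. The solute carrier folds drawn run from -0.84 for Slc22a23 to 1.34 for Slc39a11. Not drawn are Slc44a1 and Slc4a7, each at 0 reads in a group, and the other tested hosts with fewer than 10 reads. The folds of those others run from -2.10 for Slc9a7 to 2.37 for Slc30a7. The upper panel has no such cut, so the panels hold unlike sets.

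The same held for single circRNAs. At least 6 reads were reached by 22 of the 118 circRNAs, and in edgeR 0 were lower and 0 higher in model rats after adjustment, against 2 of 1025 lower (0.195%) and 0 of 1025 higher (0%) in the series. DESeq2 and limma voom also called 0 of the 22. An unadjusted p under 0.05 in edgeR was reached by 1 of the 22, circRNA1319 of Slc44a1, against 54 of 1025 circRNAs (5.27%). It reached the filter of 6 reads through control rats alone, so neither this p nor the order of its groups is taken as support. The model rats of circRNA1319 all lay below its control rats, which was so for 1 of 22 members and for 47 of 1025 circRNAs (4.59%). The reverse was so, before edgeR's scaling, for circRNA998 of Slc41a2, 1 of 22, and for 56 of 1025 (5.46%). The median log2 fold was -0.24 over the 22 and -0.02 over the 1025. In the authors' deposited table, 1 of the 118 members is marked as lower in model rats, against 22 of 7461 exonic circRNAs (0.295%). This is circRNA1319 again, with a p-value of 0.0440 and a q-value of 1 in the authors' deposited table.

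The solute carrier circles spanned a median of 11770 bp of genome, against 12651 bp over all exonic circRNAs, and held a median of 4 exons in both sets. The longer of the introns flanking a circle had a median of 10861 bp, against 13465 bp over all exonic circRNAs. Circles of at least 10 exons made up 6.78% of the family, against 11.3% of all exonic circRNAs. Circles of a single exon numbered 5 (4.24%), against 5.04% of all exonic circRNAs, and they took 1.35% of the family's reads, against 10.3% of all exonic reads or 7.52% without the series' most abundant circle, a single-exon circRNA of Nfix. Of the 23 hosts with at least 2 circles, 16 (69.6%) reused an acceptor and 13 (56.5%) reused a donor, against 51.1% and 45.2% of 1517 hosts in the series. These are descriptions with no test.

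Other transport genes and the regulators of cation-chloride cotransporters gave a single call. The kinases and partners that act on Slc12 carriers held 14 genes, 9 of them with reads, 18 in model rats and 69 in control rats. Of 3 tested, 1 was lower, a call already known when the list was drawn up. Stk39, which encodes the kinase SPAK that phosphorylates NKCC1, had 3, 1 and 0 reads in model rats and 15, 17 and 16 in control rats. Its log2 fold was -3.32 ± 0.77 (SE, edgeR adjusted p = 0.0112), and edgeR called 0 hosts at all without model rat 2, model rat 3, control rat 2 or control rat 3. Without Stk39 the list had 14 reads in model rats and 21 in control rats, and its kinase Wnk1 had 3, 0 and 3 in model rats and 0, 3 and 4 in control rats. Slc12a2, the cotransporter that SPAK acts on, had only the 3 reads given above.

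Of 34 P-type ATPase pump genes, which build the ion gradients that many solute carriers use, 15 had reads, 53 in model rats and 71 in control rats, and 0 of 6 tested passed, with a median log2 fold of -0.55. The plasma membrane calcium pump gene Atp2b1 led them with 10, 3 and 15 reads in model rats and 8, 7 and 7 in control rats. Of 36 ABC transporter genes, 10 had reads, 23 in model rats and 29 in control rats, and 0 of 2 tested passed. Their leading host Abcc1, an efflux pump gene, had 2, 1 and 5 reads in model rats and 6, 5 and 3 in control rats.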

How the data were processed

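Back-splice reads of white matter from 3 model and 3 control rats, grouped by the sample labels, were compared. The authors deposited 1 table of 11123 circRNAs with counts of back-splice reads per library, per the file headers, on genome build mRatBN7.2, per the submitters' processing notes. The aligner and caller were not given in the sources used here. Besides counts, the deposited table holds a normalised signal (SRPBM), used only for its implied divisors, log2 fold changes, p-values and q-values of the authors' own comparison, whose test is not given, and exon numbers. Coordinates are 1-based as listed in the table, and 56 of 56 host symbols matched a RefSeq table of the GRCr8 assembly, used for names only.

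The members and lists were chosen with earlier results of these data known. Solute groups follow the carrier family number, so a few hosts stand beside solutes that they do not carry. Exonic reads were summed per host. The quasi-likelihood test of edgeR 4.0.16 in R 4.3.3 was used, with TMM scaling on exonic junction totals, at least 6 reads over 6 libraries and Benjamini-Hochberg adjustment over all features tested, at a threshold of 0.05. Levels are unscaled reads per 1000 exonic reads, so ratios of levels differ slightly from edgeR's folds. Named were the 20 hosts with most reads, those with at least 10 also with a fold, circRNAs with at least 10 reads, and all circles of Slc41a2 and Slc1a2; other names were chosen after their values were seen. The scripts were tested on simulated data. Alternatives were DESeq2 1.42.0, voom in limma 3.58.1, other filters or scaling, the replicate number as a block, ciRNAs added to host sums, and each library left out. Within groups, libraries differed by more than sampling noise (chi-square over degrees of freedom 1.99 to 2.46).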

Additional observations from a re-analysis of the deposited data

How the results depend on the processing

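Solute carrier hosts and circRNAs passing the test numbered 0 under every alternative run. In the whole series, 3 hosts and 2 circRNAs passed; with no filter on low counts these became 1 host and 0 circRNAs, and with 1 library left out they ranged from 0 to 3 hosts and from 0 to 4 circRNAs. Of 217 folds of named hosts and circRNAs under an alternative, 197 kept their direction and 20 turned. Scaling by DESeq2 size factors turned Slc38a1 to -0.0054, and the authors' divisors turned Slc38a1 to -0.0079, Slc7a11 to -0.0134 and Slc16a10 to -0.0053. Both scalings moved the median of all hosts from 0.02 to -0.14. Slc38a9 turned to 0.21 in limma voom. With 1 library left out, folds ranged from -0.05 to 0.54 for Slc38a1, -0.51 to 0.16 for Slc1a2, -1.22 to 0.16 for Slc38a9, -0.22 to 0.80 for Slc33a1, -0.80 to 1.01 for Slc7a11, -0.37 to 1.74 for Slc16a10, -0.68 to 0.29 for circRNA1658 and -1.33 to 0.23 for circRNA999. The cause of these turns was not tested. The difference in the solute carrier share moved from 0.186 to -0.0123 points with Slc8a1 added. After the data were seen, the metal ion difference was taken without Slc41a2 (1.94 to 0.537 per 1000) and the carboxylate and choline difference without Slc44a1 (-0.727 to 0.0926). With the replicate number as a block (replicate block) 3 hosts and 2 circRNAs passed. Same-numbered libraries correlated at -0.129, -0.0432 and -0.0279 over 356 hosts, and libraries of unlike number at -0.0596 to 0.101. These values show no pairing, but at such low counts they cannot tell whether same-numbered libraries shared a step. Slc39a11 had too few reads to test without model rat 2. Depth limits all of this: 38 of the 56 hosts had fewer than 6 reads.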
